A study of Mus musculus with 31 samples.

Results

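Adipsin (complement factor D, gene Cfd) separated 3 livers from the others of the total ChREBP line, and these 3 livers are described here. They were chosen by 1 measurement, the log2 intensity of Cfd probe A_51_P156955 in the deposited table, with a division at 10. The rule took 3 of the 15 arrays of that line, in a series of 31 liver arrays. The 3 deposited values were 12.94 in ChREBPtotal_KO replicate 6, 11.03 in ChREBPtotal_WT replicate 2 and 11.44 in ChREBPtotal_WT replicate 5, and the other 12 arrays (6 ChREBPtotal_KO and 6 ChREBPtotal_WT) lay between 4.59 and 6.01. No array of the line lay between 6.01 and 11.03. Because a reading of these arrays made the division, differences between the 3 Cfd-high and the 12 Cfd-low arrays are descriptions, with no test.

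The total line held 7 ChREBPtotal_KO mice, which are Mlxipl-null and so lack both isoforms of the glucose-sensing transcription factor ChREBP, and 8 ChREBPtotal_WT littermates. The other line held 8 ChREBPbeta_KO mice, with a CRISPR/Cas9 deletion of the exon specific to the beta isoform, and 8 ChREBPbeta_WT littermates. All were C57BL6/J males, the knockouts lacking the gene or exon in the whole body, and were fasted for 24 hours and then refed for 18 hours with food and 20% glucose in the water; their ages were not given in the sources used here. RNA of each liver was read on 1 one-color Agilent array, and the study profiled white and brown fat of such mice in parallel, which was not analysed here.

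Of the 59305 spots that were not controls, 62.3% to 70.5% were well above background per array, and each array correlated with the others of its group at a median r of 0.9903 to 0.9962. Mlxipl, read by probe A_55_P2119957, fell by 1.16 ± 0.0735 (SE) on the log2 scale in ChREBPtotal_KO (limma, Benjamini-Hochberg adjusted p = 8.05e-13), and the 3 Cfd-high arrays stood with their genotypes at 14.12, 15.22 and 15.14. Hepatocyte markers were present on all arrays: a probe of albumin (Alb) sat at the top rank of the scale, 18.96, on every array, and the mean of 10 hepatocyte genes on the 3 arrays lay 0.04, 0.22 and 0.14 above the Cfd-low arrays of the same genotype, whose own range was -0.13 to 0.10. The 3 arrays came from 3 slides and both scan days. In whole-liver RNA, more cells of a type and more RNA per cell cannot be told apart.

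Adipsin is a serine protease that cleaves factor B in the alternative complement pathway, and adipocytes are its best-known source. Mature adipocytes also secrete adiponectin (Adipoq) and, in mice, resistin (Retn), carry the fatty acid-binding protein aP2 (Fabp4) and coat their lipid droplet with perilipin 1 (Plin1). Hepatocytes that store much triglyceride can switch on a part of the same program under PPARgamma, with the droplet proteins Cidec and Cidea and the acyltransferase Mogat1 as known examples.

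The 250 bases upstream of 4 genes on which the comparison turned are shown from RefSeq (GRCm38.p6): Cfd, Retn, Adipoq and Mogat1. Cfd made the division, Retn and Adipoq were higher on the same 3 arrays, and the brightest Mogat1 probe followed Cfd in the other line. All lie on the plus strand, at chr10:79890603-79890852, chr8:3655520-3655769, chr16:23146286-23146535 and chr1:78510810-78511059 in that order, and are written 5′ to 3′ with the letters CCAAT, read on either strand, in capitals.
Cfd: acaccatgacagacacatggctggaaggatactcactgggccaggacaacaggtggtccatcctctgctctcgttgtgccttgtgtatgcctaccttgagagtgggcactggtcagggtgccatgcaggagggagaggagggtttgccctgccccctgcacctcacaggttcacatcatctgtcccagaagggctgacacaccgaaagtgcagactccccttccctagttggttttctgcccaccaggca
Retn: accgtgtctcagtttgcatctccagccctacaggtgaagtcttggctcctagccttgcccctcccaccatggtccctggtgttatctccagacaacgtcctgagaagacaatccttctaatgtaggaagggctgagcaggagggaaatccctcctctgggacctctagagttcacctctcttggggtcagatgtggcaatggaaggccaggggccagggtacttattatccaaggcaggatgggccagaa
Adipoq: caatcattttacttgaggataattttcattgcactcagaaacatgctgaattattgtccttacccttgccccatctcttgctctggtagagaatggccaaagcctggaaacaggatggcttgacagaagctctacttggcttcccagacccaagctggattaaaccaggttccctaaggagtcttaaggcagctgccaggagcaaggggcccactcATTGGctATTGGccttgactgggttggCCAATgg
Mogat1: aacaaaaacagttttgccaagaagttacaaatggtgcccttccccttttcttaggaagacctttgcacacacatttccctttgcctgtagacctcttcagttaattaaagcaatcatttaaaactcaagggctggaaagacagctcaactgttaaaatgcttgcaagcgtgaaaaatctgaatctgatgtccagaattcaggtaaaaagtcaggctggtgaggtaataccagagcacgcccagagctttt
CCAAT occurred 3 times in the Adipoq window and not in the other 3, and 33.8% of 32851 promoter windows of this length held it. The letters AGGTCA (14.0% of windows), TTNNGCAA (9.56%) and TATAAA (12.4%), also searched on both strands, were in none of the 4 windows. These matches describe letters only.

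Retn and Adipoq, which encode secreted adipocyte products, were higher on the 3 arrays that Cfd had set apart. Cfd read 12.94, 11.03 and 11.44 in ChREBPtotal_KO replicate 6, ChREBPtotal_WT replicate 2 and ChREBPtotal_WT replicate 5 (the order used from here on), against 4.59, 5.35 and 6.01 as the lowest, median and highest of the 12 Cfd-low arrays. The sets were far apart, by 6.66 on the log2 scale after adjustment for genotype, and the second Cfd probe, at 11.89, 9.997 and 10.48 against 4.43 to 5.56, differed by 6.06. Cfd was well above background on 9 of the 12 Cfd-low arrays.

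Retn, the mouse adipocyte hormone resistin, read 8.99, 7.55 and 8.40 against 5.09, 5.37 and 5.71 (lowest, median, highest). The 3 arrays lay above all 12, by 2.95 after adjustment. A second Retn probe, which failed the filter on dim probes, read 9.02, 7.24 and 8.46 and was not well above background on any Cfd-low array. Cfd-low values were therefore set no lower than the lowest intensity called well above background on their array. The Cfd-high mean was then 13.2-fold the Cfd-low mean, without adjustment for genotype. ChREBPtotal_WT replicate 2 lay less far above, at 7.24 against 4.71 on the highest Cfd-low array. Adipoq read 8.87, 7.19 and 7.82 against 4.21, 4.51 and 5.001. Its probe failed the same filter, being well above background on the 3 arrays but on only 3 of the 12, and the fitted difference of 3.47 therefore rests on Cfd-low values near the floor. On Cfd, Retn and Adipoq alike, ChREBPtotal_KO replicate 6 was the highest and ChREBPtotal_WT replicate 2 the lowest of the 3.

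Adig, Fabp4 and Plin1 encode adipocyte proteins that stay in the cell. Adig (adipogenin, a small membrane protein of fat cells) read 7.66, 6.83 and 7.40 against 5.33, 5.52 and 5.79, a difference of 1.77 with no overlap. Fabp4 read 11.60, 11.39 and 11.56 against 10.13, 10.65 and 11.30. Its 3 arrays were above the 12 by 0.89, but the gap to the highest Cfd-low array was small; the second Fabp4 probe differed by 1.001. Plin1 was read by 3 probes that disagreed. One dim probe read 6.65, 5.62 and 5.83 against 4.48, 4.88 and 4.93, another dim probe differed by 0.72, and the brightest, the only one that passed the filter, differed by 0.025 with overlap.

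**Figure D1:**
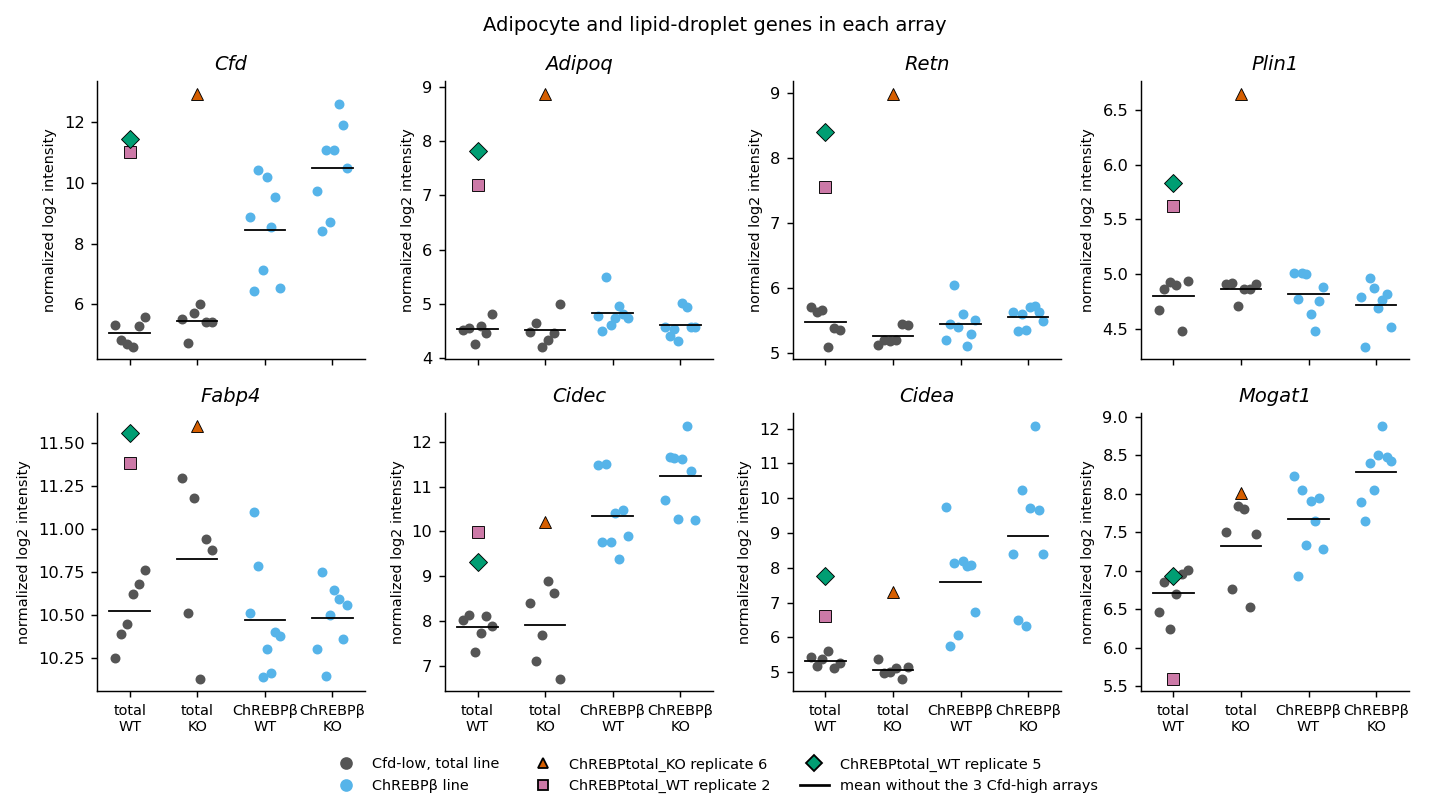
Normalized log2 intensity (y axis) of 8 genes in each of the 31 arrays, by group (x axis); points are mice, colored symbols the 3 Cfd-high arrays and lines group means without those 3. Adipoq, Retn and Fabp4 were highest on the 3 arrays among all 31, whereas Cidec, Cidea and Mogat1 reached higher values in the ChREBPbeta line.

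Of the 14 genes listed as adipocyte-defining, 13 were on the array and 10 passed the filter. Of these 10, 3 (Cfd, Retn and Fabp4) lay above the 12 arrays without overlap and none lay below; over all 23968 genes 127 did so upward (0.53%) and 99 downward (0.413%). As the division used these arrays, nothing is read from that contrast, nor from the like counts for the lists below. The other 7 genes that passed overlapped between the sets, among them leptin (Lep) at 8.27, 8.18 and 8.52 against 7.98 to 8.51, and the insulin-sensitive glucose transporter Slc2a4 at 7.85, 8.42 and 7.86 against 5.12 to 10.88. The Slc2a4 range pools both genotypes, between which this gene differed, as given below. The median difference of the 10 genes was 0.13, against -0.0041 over all genes. Without Cfd, the mean of the list lay 0.81, 0.23 and 0.33 above the Cfd-low arrays of the same genotype, whose own range was -0.21 to 0.23. On the ChREBPtotal_WT arrays that mean of 9 genes rested largely on Retn, which alone lay 2.93 above in ChREBPtotal_WT replicate 5. The median of all 10 genes, with Cfd, was 0.41, 0.07 and 0.24 on the 3 arrays.

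Droplet genes that adipocytes and fat-laden hepatocytes share gave 2 of 13 genes above without overlap, where 0.53% of all genes lay above. Cidec (FSP27), which enlarges lipid droplets, read 10.21, 9.99 and 9.31 against 6.71, 7.95 and 8.88. All 3 arrays lay above the 12, by 1.98. Cidea, its relative, read 7.30, 6.62 and 7.77 against 4.82, 5.16 and 5.62, a difference of 1.99, again with no overlap. The other 11 overlapped, including the lipases Lpl (10.09, 10.51 and 9.72 against 8.50 to 10.16) and Lipe (7.41, 7.19 and 7.08 against 6.63 to 7.44) and the adipogenic receptor Pparg (10.40, 9.16 and 9.90 against 9.45 to 10.75). The median over the 13 was 0.03. The list mean lay 0.44, 0.37 and 0.32 above the Cfd-low arrays of the same genotype, whose own range was -0.22 to 0.22. The list median was 0.11, 0.26 and 0.09 on the 3 arrays.

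Among 13 genes listed for lipid loading of hepatocytes, none lay above and 1 lay below, against 0.53% and 0.413% of all genes. Plin2, the main droplet coat of hepatocytes, read 13.92, 14.93 and 15.10 against 13.76, 14.23 and 14.78. Mogat1 read 8.005, 5.60 and 6.93 against 6.25, 6.91 and 7.84, with ChREBPtotal_WT replicate 2 the lowest of the 15 arrays. Plin5, which couples droplets to mitochondria, was the 1 gene lower, with a difference of -0.295 and no overlap once values were centered by genotype. The median of the list was -0.02.

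None of the 14 genes of lipogenesis and ChREBP targets stood apart, where 0.53% of all genes lay above and 0.413% below. All 14 had negative differences, with a median of -0.53. The 2 ChREBPtotal_WT arrays carried this. Relative to the Cfd-low arrays of the genotype, the list mean was -0.76 in ChREBPtotal_WT replicate 2 and -1.17 in ChREBPtotal_WT replicate 5, both beyond the lowest Cfd-low array at -0.61, and -0.10 in ChREBPtotal_KO replicate 6. Elovl6, a fatty acid elongase, read 13.50 and 13.32 there, against 14.93 ± 0.70 (SD, n = 6) in the Cfd-low ChREBPtotal_WT arrays.

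Brown adipocyte genes gave 1 of 5 above, where 0.53% of all genes lay above. Cox8b, a cytochrome oxidase subunit of brown fat and muscle, read 9.14, 5.51 and 6.39 against 4.64, 4.76 and 5.32. The 3 arrays were above the 12 by 2.28, most of it from ChREBPtotal_KO replicate 6. The defining gene Ucp1 failed the filter and read 4.48, 4.27 and 5.24 against 3.80 to 4.41, well above background on 1 of the 3. Of 9 genes of the alternative complement pathway only Cfd, which made the division, stood apart. The mean of the other 8 lay 0.0077, 0.14 and 0.21 above the Cfd-low arrays.

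By the rule of largest difference without overlap, 14 genes were at least 2-fold higher (0.0584% of 23968; 18 of 36059 probes, 0.0499%) and none at least 2-fold lower. Besides Cfd, Retn, Cidea, Cidec, Adig and Cox8b they were Tnnc2, F13a1, Tppp3, Tcap, Penk, S100a4, Ccl8 and Cxcl13. S100a4, a calcium-binding protein of fibroblasts and leukocytes, read 10.02, 10.72 and 9.84 against 8.05, 8.70 and 9.64. It was high on all 3 arrays, by 1.49. F13a1, the A subunit of clotting factor XIII, read 7.75, 8.46 and 6.05 against 4.87, 5.19 and 5.92. Its difference of 2.11 came from the first 2 arrays, with ChREBPtotal_WT replicate 5 just above the range. Tppp3, a tubulin-binding protein, read 10.17, 9.35 and 7.37 against 6.595, 6.99 and 7.36, again with ChREBPtotal_WT replicate 5 just above the range.

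Further genes were high on mainly 1 array. Tnnc2, troponin C of fast muscle, read 12.76 in ChREBPtotal_KO replicate 6 but 5.71 and 5.62 on the other 2, against 5.21 to 5.68. Ccl8 and Cxcl13, both chemokines, were led by ChREBPtotal_WT replicate 2 at 7.33 and 7.64. Fabp4, Grrp1, Emilin2, Cma1 (mast cell chymase), Adgrf1 and Ccl6 complete the 20 largest, between 0.77 and 0.89. Before centering by genotype, 7 of the 20 overlapped with the Cfd-low arrays, and 6 were at least 2-fold higher on each of the 3 arrays. The genes lower with the largest difference and no overlap included Csprs (-0.58), Lrrc18, Frk, Bmp2, Sept4, Kcnk6, Cln6, Rtn1 and Nfic (-0.36).

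**Figure D2:**
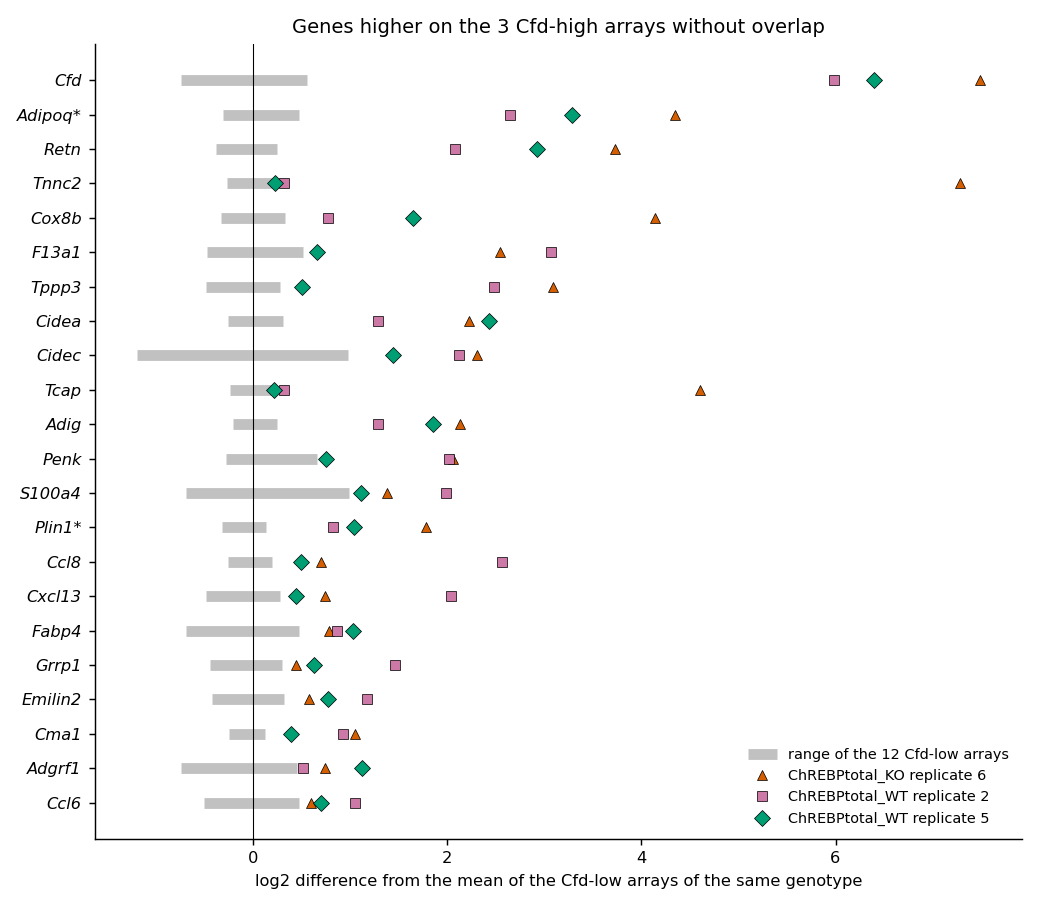
Log2 difference of each Cfd-high array from the mean of the Cfd-low arrays of its genotype (x axis) for the 20 genes with the largest difference without overlap, plus Adipoq and Plin1, whose probes (asterisk) did not pass the filter on dim probes. Gray bars span the 12 Cfd-low arrays. Cfd, Adipoq, Retn, Cidea, Cidec, Adig and S100a4 were raised on all 3, while Tnnc2 and Tcap were far to the right in ChREBPtotal_KO replicate 6 alone.

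The 3 livers differed in what else they carried. Among probes that passed the filter, ChREBPtotal_WT replicate 5 was the plainest, with 6 at least 4-fold above the Cfd-low mean of its genotype. They were both Cfd probes, Retn, Cidea, an unnamed transcript and the retinoic acid hydroxylase Cyp26a1, named after its value was seen. ChREBPtotal_KO replicate 6 had 85 such probes and ChREBPtotal_WT replicate 2 had 63, against 0 to 119 (median 7) for a Cfd-low array set against the others of its genotype. Adipoq and the second Retn probe failed the filter and were not counted. Adipoq lay 3.28 above the Cfd-low ChREBPtotal_WT mean in ChREBPtotal_WT replicate 5.

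In ChREBPtotal_KO replicate 6, genes of skin and muscle stood out. The summed intensity of 11 epidermal genes, a list chosen after their values were seen, was 56670, against 1023 to 1468 on the Cfd-low arrays and 1446 and 1135 on the other Cfd-high arrays. Loricrin (Lor), of the cornified skin layer, read 14.50 against 6.88 to 9.22. Of 7 skeletal muscle genes 5 passed the filter, and their sum was 6476 against 367.7 to 442.3. Skeletal actin (Acta1) read 11.36 against 4.87 to 6.03. The part of these tissues in the Cfd, Retn and Adipoq readings was not tested. On the ChREBPtotal_WT arrays the list mean was 0.34 and 0.02 for epidermis, against -0.13 to 0.13 on the Cfd-low arrays, and 0.03 and 0.07 for skeletal muscle, against -0.12 to 0.06. For fast muscle fibre, a list also chosen after values were seen, it was 0.16 on both, against -0.12 to 0.14. Keratin 14 (Krt14) read 6.74 in ChREBPtotal_WT replicate 2, above the highest Cfd-low array at 6.15.

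ChREBPtotal_WT replicate 2 carried genes of the exocrine pancreas and of connective tissue. The 6 of 12 pancreatic genes that passed the filter summed to 22300, against 2615 to 8684 on the Cfd-low arrays, and 4067 and 2806 on the other Cfd-high arrays. The elastase gene Cela3b read 10.41, against 5.09 to 8.81. Some stromal and mesothelial genes were high there and in ChREBPtotal_KO replicate 6: Pi16, of adventitial fibroblasts, read 8.67, 8.44 and 6.75 against 5.73 to 6.72, and mesothelin (Msln) 8.59, 9.09 and 7.95 against 6.55 to 8.41. Of 8 stromal genes only Thy1 stood apart, above the 12, where 0.53% of all genes lay above. Of 5 mesothelial genes none did, although all 5 differences were positive (median 0.43). The list mean for mesothelium was 0.81, 0.79 and 0.01, against -0.74 to 0.42 on the Cfd-low arrays. For stroma it was 0.47, 0.99 and 0.16 against -0.48 to 0.67, so that only ChREBPtotal_WT replicate 2 lay above the range; their part in the adipocyte readings was not tested. Macrophage, endothelial, lymphocyte, red cell, bile duct, hepatocyte and clock lists gave no gene apart, where 0.53% of all genes lay above and 0.413% below. Retnla, a resistin-like protein of adipose tissue and of macrophages, failed the filter and read 9.68, 5.56 and 6.66 against 4.11 to 6.97, so that only ChREBPtotal_KO replicate 6 lay above the range.

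**Figure D3:**
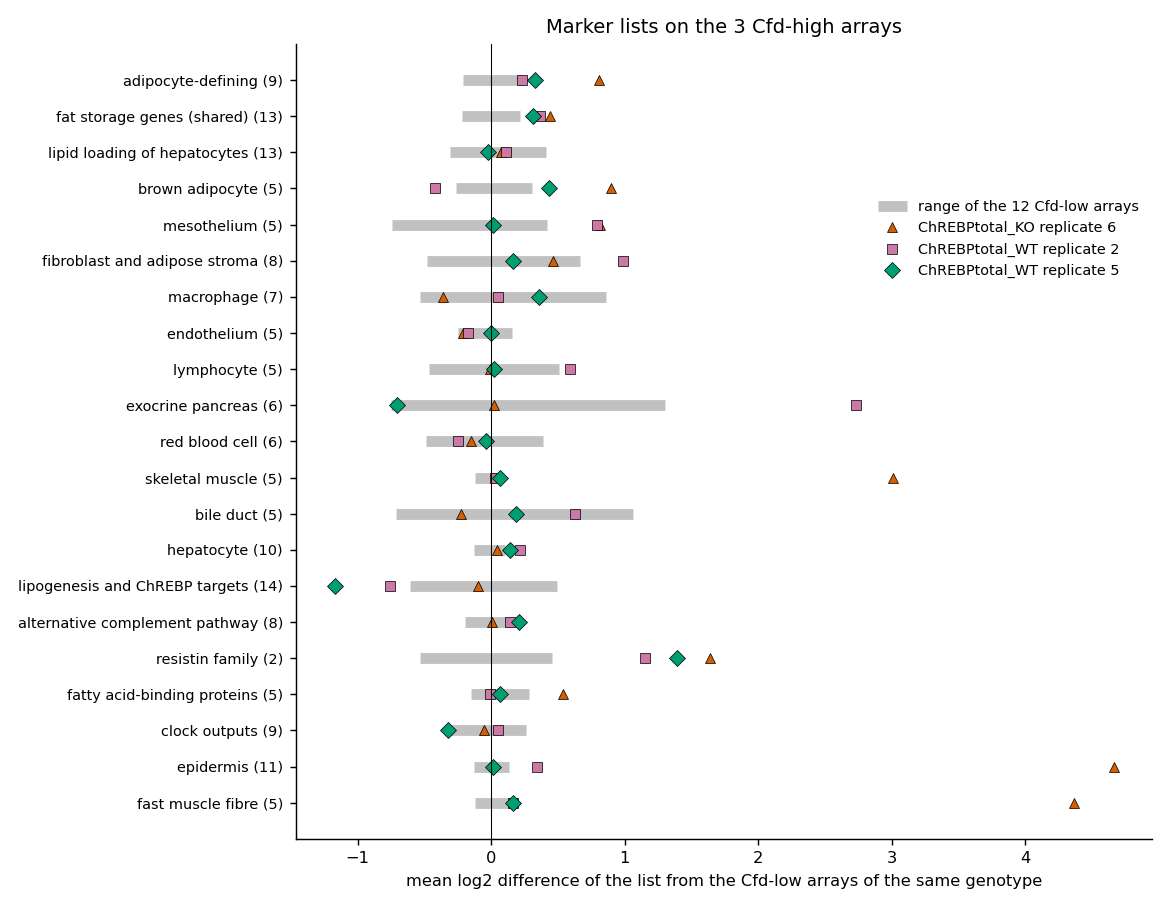
Mean log2 difference of each marker list (number of genes in parentheses, Cfd left out) on the 3 Cfd-high arrays from the Cfd-low arrays of the same genotype (x axis), with gray bars for the range of the 12 Cfd-low arrays. ChREBPtotal_KO replicate 6 stood apart for skeletal muscle (3.01), epidermis (4.66) and fast muscle fibre (4.36), the last 2 being lists chosen after values were seen, and ChREBPtotal_WT replicate 2 for exocrine pancreas (2.73).

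The ChREBPbeta line, which the division did not use, had Cfd of its own. All 16 arrays were well above background, from 6.44 to 12.60 (median 9.64), and 4 reached the lowest Cfd-high array of the total line. Their means were 10.50 ± 1.47 (SD, n = 8) in ChREBPbeta_KO and 8.46 ± 1.59 (SD, n = 8) in ChREBPbeta_WT. Adipoq, Retn, Adig and Fabp4 did not reach the Cfd-high levels there, whereas leptin, which did not separate the total line, was at or above its lowest Cfd-high array on 9 of 16. Adipoq spanned 4.32 to 5.50, Retn 5.11 to 6.04, Adig 5.35 to 5.74 and Fabp4 10.14 to 11.10, and on none of the 16 arrays did these 4 genes reach the lowest of the 3 Cfd-high arrays.

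The droplet genes Cidec and Cidea did reach those levels. Cidec spanned 9.39 to 12.37, at or above the lowest Cfd-high array on 16 of 16, and Cidea 5.74 to 12.09, on 12 of 16. The liver with the most Cfd, ChREBPbeta_KO replicate 6, read 12.60 for Cfd, 12.09 for Cidea, 12.37 for Cidec and 8.89 for Mogat1, with Adipoq at 4.95, Retn at 5.73 and Adig at 5.70.

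Within that line the slope of every probe on Cfd was tested with genotype as a covariate. At an adjusted p under 0.05, 6 of 36057 probes passed (0.0166%), 5 upward and 1 downward, while 3136 (8.7%) had an unadjusted p under 0.05. Mogat1, which makes diacylglycerol for triglyceride synthesis, rose by 0.25 ± 0.03 (SE) log2 units per log2 unit of Cfd (limma adjusted p = 0.0207) on its brightest probe. A second, dimmer Mogat1 probe that passed the filter was not among the 6. It spanned 4.96 to 6.06 in this line, against 6.93 to 8.89 for the brightest. Cidea rose by 0.91 ± 0.14 (limma adjusted p = 0.0388) and Cox8b by 0.21 ± 0.03 (limma adjusted p = 0.0338). Gpc1, a heparan sulfate proteoglycan, and Mapt, the protein tau, were the others upward at 0.22 and 0.15, and a dim probe of the leptin receptor (Lepr), named after its value was seen, fell by 0.20, while the brightest Lepr probe had a slope of 0.01. Within the scan days, of 7 and 9 arrays, the Mogat1 slope was 0.24 and 0.28, and that of Cidea 0.85 and 0.94. With scan day as a term, without the 2 arrays farthest from the median of Cfd, or after normexp background correction, no probe passed. The slopes themselves stayed near those values, at 0.24, 0.23 and 0.22 for Mogat1 and 0.83, 1.01 and 0.86 for Cidea in that order.

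Retn had a slope of 0.07 ± 0.03 (limma adjusted p = 0.565) and Fabp4 of -0.03 (limma adjusted p = 0.911); Cidec, at 0.31 ± 0.10, also missed the threshold (limma adjusted p = 0.394). Of 9 adipocyte-defining genes tested, none passed. In genotype-centered values Retn had Pearson r = 0.491 with Cfd (permutation p = 0.0621, adjusted over the 9 genes p = 0.438) and Spearman rho = 0.576 (permutation p = 0.0252, adjusted p = 0.227) over 16 arrays. Without the 2 farthest arrays r was 0.626, and within the scan days it was 0.83 and -0.215, so that the relation of Retn did not hold in both. The other 8 genes had r from -0.33 to 0.45.

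**Figure D4:**
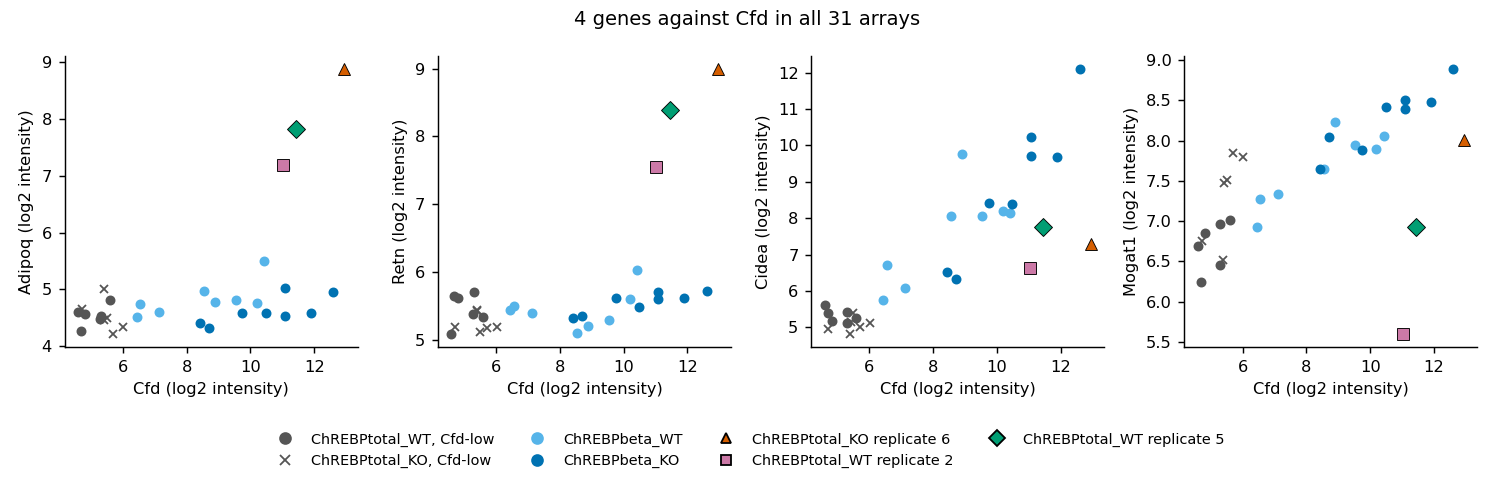
Log2 intensity of Adipoq, Retn, Cidea and Mogat1 (y axes) against Cfd (x axis) in all 31 arrays. Each gene is shown by its brightest probe. Across the ChREBPbeta line (blue) Cidea and Mogat1 climbed with Cfd. Adipoq and Retn were each at or below the highest Cfd-low array (gray) on 14 of the 16 ChREBPbeta-line arrays. The second Retn probe, which failed the filter and is not shown, was so on 8 of the 16. The 3 Cfd-high arrays (large symbols) lay above all others for Adipoq and Retn.

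The comparison that the labels give was also made for these genes. In ChREBPtotal_KO against ChREBPtotal_WT, Cfd differed by -0.07 ± 1.11 (SE; limma adjusted p = 0.974), and by 0.41 without the 3 Cfd-high arrays (limma adjusted p = 0.695). Retn differed by -0.30 ± 0.45 (limma adjusted p = 0.668) and Fabp4 by 0.17 ± 0.19 (limma adjusted p = 0.544). Over all genes, 14.4% were called higher and 14.8% lower in this contrast. Of the 10 adipocyte-defining genes 1 was called in each direction: Slc2a4 fell by 3.19 (SE 0.42, limma adjusted p = 6.25e-07) and Adrb3, the beta-3 adrenergic receptor, rose by 1.52 (SE 0.17, limma adjusted p = 5.3e-08). All 14 genes of lipogenesis and ChREBP targets were lower. In the ChREBPbeta line Cfd differed by 2.04 ± 1.07 (limma adjusted p = 0.992) and none of the 10 was called, where 0.00417% of genes were called. The model held all 31 arrays, whose groups share 1 estimate of the spread, so the 3 Cfd-high arrays of the total line entered that SE.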

How the data were processed

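Liver RNA of 31 mice was read on 1 one-color Agilent array (SurePrint G3 Mouse GE) per mouse, and groups came from the sample labels. The authors deposited scanner files with the intensity of each spot, from Agilent Feature Extraction 10.10.1.1 per the file headers, and a table of log2 values that the Methods describe as median intensities, filtered, quantile normalized with preprocessCore after import with limma, and reduced to the median of replicate probes. The log base was checked against the scanner files: values rebuilt here differed from the deposited log2 values by -0.027 to 0.0302 (1st to 99th percentile).

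Median signals were put on the log2 scale with no background subtraction. Of 59305 spots that were not controls, 38721 were kept: the scanner flags had to call a spot found, positive and brighter than background in 26 or more arrays, or in 6 or more of a single group. After quantile normalization they gave 36059 probes of 23968 genes, each gene read by its brightest probe. None of the kept spots was saturated. Members that failed this filter are given with that remark.

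The division on Cfd used a measured value, so its differences carry no test. They are coefficients adjusted for genotype, and 2 sets are called apart when values centered on the Cfd-low mean of the genotype do not overlap. Slopes on Cfd in the ChREBPbeta line and differences between genotypes were tested with limma 3.58.1 in R 4.3.3, with Benjamini-Hochberg adjustment over probes and a threshold of 0.05. Correlations had a permutation test within genotype (100000 resamples, two-sided). The named genes are Cfd, Retn, Fabp4, members of the gene lists, the 20 genes higher and 10 lower with the largest difference and no overlap, and up to 10 per direction with a called slope; genes and lists outside this rule are marked as chosen after their values were seen. A gene that the rule names is not reported here. Members and lists were chosen with earlier results of these data known. P-values measure the spread among these mice.

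On simulated data with 200 of 36059 probes changed, slopes of 0.1, 0.2 and 0.4 were recovered for 25%, 86% and 97.5% of probes, with 0, 3 and 39 false calls, and genotype differences of 0.5 and 1 for 88.5% and 97.5%, with 36 and 10 false calls. The alternatives were the deposited values, scaling to the 75th percentile, normexp background correction (offset 50), other filters, scan day, slide, the replicate number and left-out arrays. The number of arrays limits the precision.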

Additional observations from a re-analysis of the deposited data

Results flagged for a closer look

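Among 23 named genes in 4 groups, 24 of 92 groups of arrays held an array far from the others of its group. Chance gives about 5% of groups, but Cfd made the division and most of these genes were chosen for their difference on the same 3 arrays, so that this count cannot be read against it. In ChREBPtotal_KO the array far above the rest was replicate 6 for Cfd (12.94), Retn (8.99), Adig (7.66), Cidea (7.30), Cma1 (5.95), Cox8b (9.14), F13a1 (7.75), Penk (7.19), Tcap (9.55), Tnnc2 (12.76) and Tppp3 (10.17). In ChREBPtotal_WT it was replicate 2 for Ccl8 (7.33), Cma1 (5.85), Cxcl13 (7.64), F13a1 (8.46), Penk (6.85) and Tppp3 (9.35), and replicate 6 lay below the rest for Gpc1 (9.49). In the ChREBPbeta line replicate 2 of ChREBPbeta_KO was far above for Ccl8 (5.86), F13a1 (6.23) and Grrp1 (6.08), and replicate 3 of ChREBPbeta_WT for Ccl8 (6.70), Cxcl13 (7.21) and Tcap (5.10).

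The genotype difference of 2 adipocyte-defining genes differed between the lines. The total-line difference minus the ChREBPbeta-line difference was -3.56 for Slc2a4 (limma interaction, adjusted p = 5.73e-05) and 1.31 for Adrb3 (limma interaction, adjusted p = 0.000236).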

How the results depend on the processing

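Of 339 alternative values, 252 were rated unchanged. They kept their direction and their side of the threshold, moved by less than the spread or, for counts, stayed within a set ratio of the main count. Among the descriptive differences of Cfd, Retn and Fabp4 none changed direction. With scaling to the 75th percentile the Cfd difference was 7.90 and the Retn difference 3.75, 9 probes were lower by 2-fold where none had been, and 2 probes passed the slope on Cfd. With normexp correction the differences were 5.65 and 2.20 and 0 probes passed the slope test. With spots required on all 31 arrays, Cfd itself drops out, 4 probes in place of 18 were higher by 2-fold, 1 adipocyte-defining gene stood apart, 2 probes passed the slope, and 1 adipocyte-defining gene was called by genotype and 1 by the interaction. Without a filter 32 probes were higher by 2-fold and 4 adipocyte-defining genes stood apart, Adipoq among them. Within ChREBPtotal_KO, with 1 Cfd-high array, the differences were 7.49 and 3.73, with 216 probes higher, 39 lower, 5 adipocyte-defining genes above and 1 below. Within ChREBPtotal_WT they were 6.19 and 2.50, with 45 probes higher and 53 lower. Leaving out each Cfd-high array gave Cfd 6.19 to 6.94, Retn 2.50 to 3.33, probes higher 25 to 67 (67 without ChREBPtotal_WT replicate 5) and probes lower 2 to 45 (45 without ChREBPtotal_KO replicate 6). With scan day as a term, and without the 2 arrays farthest from the median of Cfd, 0 probes passed the slope test. The causes were not tested.

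Small values that changed sign were the Fabp4 slope without those 2 arrays (0.0242), the Cfd difference of ChREBPtotal_KO with scaling to the 75th percentile (0.22), without the 3 Cfd-high arrays (0.41) and with scan day (0.0049), and the Fabp4 difference of ChREBPbeta_KO with scan day (-0.0033); none passed the threshold before or after.

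Whether same-numbered mice of a line were paired was not settled, and the main tests did not use pairs. In the total line their deviations correlated at -0.215 to 0.241 over 7 pairs (median -0.0203), 2 of them over 0.1. There 1 mouse correlated best with its own number. In the ChREBPbeta line the range was -0.156 to 0.533 over 8 pairs (median 0.178), 6 of them over 0.1. There 4 mice correlated best with their own number. With the replicate block, 2 and 0 adipocyte-defining genes were called, as without it, and the Cfd difference of the total line was -0.32. In the ChREBPbeta line, fitted alone with the block, the Cfd difference stayed at 2.04 with an SE of 0.38 in place of 1.07 (limma adjusted p = 0.302 in place of 0.992). Fitting the line alone also left out the Cfd-high arrays of the total line, so the part of the block in that change cannot be told.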
